A study of Mus musculus with 2 samples.

Results

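The Rbm genes encode RNA-binding motif proteins, and they were read here on Affymetrix arrays in 2 mouse embryonic stem (ES) cell clones of the E14 line. Both clones overexpress the transcription factor Klf5. Members were all genes whose symbol is Rbm followed by a digit and that had at least 1 probe set (a group of array oligonucleotides read as 1 value) naming no other gene. This gave 36 genes of 18193 measured, read by 95 probe sets of 34945. Of the 36 genes, 34 code for proteins and 2, Rbm3os and Rbm46os, are long non-coding RNAs named after a neighbouring Rbm gene. Another 10 probe sets carry an Rbm symbol together with a second symbol, and the 4 genes seen by these alone, Rbm3, Rbm4, Rbm10 and Rbm31y, were left out by the rule. Both samples belong to 1 group with n = 2: Klf5 OE, undifferentiated E14 ES cells in medium with 15% serum (FBS) and LIF, a cytokine that sustains self-renewal. Each clone was hybridised once, so the clones are the replicates. The promoter that drives Klf5, and whether both clones were grown or processed together, are not stated in the labels. Wild-type clones of an earlier series were the intended comparison and were not analysed here, so no value below measures an effect of Klf5.

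Most Rbm proteins carry an RNA recognition motif, a small fold that binds single-stranded RNA. As background, members act at nearly every step of an mRNA's life: they choose splice sites, mark exon junctions, guide methylation of adenosine (m6A), hand nuclear transcripts to the RNA exosome, build ribosomes and control the stability of mRNA. Some are used by nearly all cells, and others are known from heart, muscle, brain or germ cells.

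Levels are log2 signals, 1 unit of which is a 2-fold step, and differences are clone 2 minus clone 1. A probe set was taken as above background where it exceeded the level that 95% of 78 reference probe sets stay under on the same array. These read 48 genes of adult tissues, and the level was 6.84 in clone 1 and 6.34 in clone 2. A gene was read by its brightest probe set. Signals of different probe sets depend on their oligonucleotides and were not ranked as abundance. The number of arrays limits the precision, and with 1 array per clone there is no test and no p-value: the rule of size was a 2-fold difference or more, in probe sets whose brighter clone passed the background level. The identity of the cells was read first. All 6 markers of undifferentiated ES cells were above background in both clones, between 10.12 and 14.15. The brightest Klf5 probe set gave 11.61 and 12.25, a difference of 0.64. Another above background gave 6.97 and 7.26 (0.29), and one below it gave 4.81 and 4.77 (-0.04). Of 6 fibroblast markers 2 were above background in both clones (Thy1 and Pdgfrb, up to 7.66), Acta2 passed in clone 2 alone, and the collagens Col1a1, Col1a2 and Col3a1 passed in neither. Of 4 primitive endoderm markers 0 passed in both clones, with Sox17 in clone 2 alone, and of 3 neurectoderm markers 1 did, Nes. The measured mesoderm marker Mesp1 passed in clone 1 alone and differed 2-fold, with 7.30 in clone 1 and 6.04 in clone 2. The size of that difference rests on a clone 2 value below background. The part of Mesp1 in the differences below was not tested.

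The Rbm genes fell into a large group with signal in both clones and a small group without. Of the 36 genes, 26 (72.2%) were above background in both clones, against 46.1% over the whole array. Rbm43 was above it in clone 2 alone, and 9 genes were above it in neither. Over probe sets, 55 of 95 (57.9%) were above background in at least 1 clone, against 44.1% of all probe sets. The 3 probe sets above it in clone 2 alone had signals between 6.36 and 6.73 there, under the clone 1 level of 6.84, so they passed through the lower level of clone 2. Of the 27 that passed in 1 clone or both, 26 (96.3%) differed between the clones by less than 0.5, against 92.1% of all genes above background. The remaining gene, Rbm26, differed 2-fold, against 0.443% of all genes above background.

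**Figure D1:**
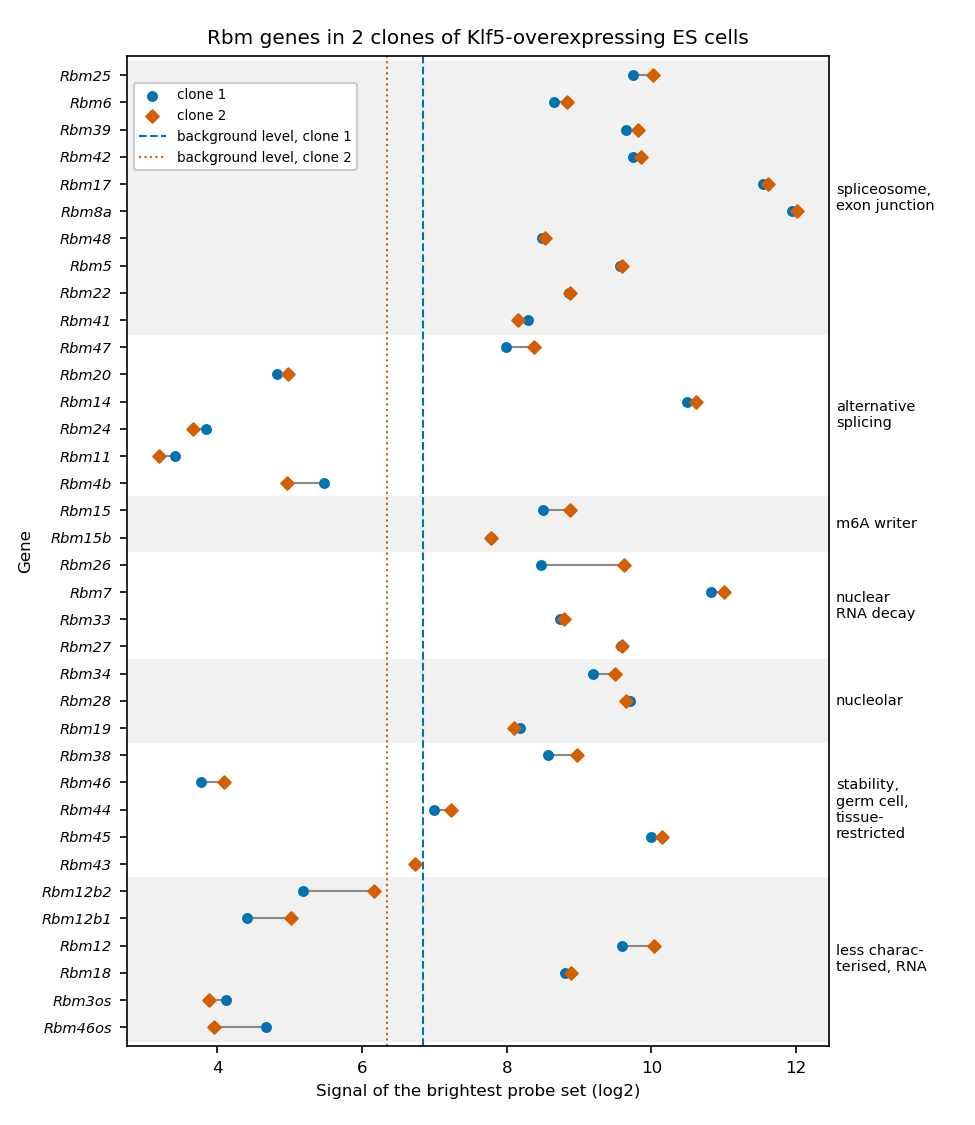
Signal of the brightest probe set of each of the 36 Rbm genes (log2, x axis) in clone 1 (blue circles) and clone 2 (orange diamonds), ordered by role, with the background level of each clone as a vertical line. In 26 genes both points lie to the right of both lines, and the longest line between points above background is that of Rbm26, from 8.47 to 9.62.

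All 10 measured members of the spliceosome and exon junction group were above background in both clones, and none differed 2-fold. Rbm8a (Y14), a core protein of the exon junction complex that splicing leaves on mRNA, gave 11.95 in clone 1 and 12.01 in clone 2 (11.98 ± 0.04, SD, n = 2). Rbm17 (SPF45), which takes part in recognition of the 3′ splice site, gave 11.54 and 11.61 (11.58 ± 0.05, SD, n = 2). Rbm22, which lies close to the catalytic RNA of the spliceosome, gave 8.86 and 8.87. By their brightest probe sets these 3 core factors were at almost the same signal in both clones. A second Rbm8a probe set above background gave 8.18 and 8.09. The other Rbm17 probe set, below background in both clones, gave 4.39 and 3.81. Rbm42, a spliceosome-associated protein, gave 9.74 and 9.86 by its brightest probe set. Rbm48, a factor of the minor spliceosome, gave 8.49 and 8.53. Rbm41 was the 1 gene of the group whose brightest probe set was lower in clone 2 as deposited, with 8.30 and 8.16. Rbm5, Rbm22 and Rbm48 were lower there too after quantile or loess normalization. The group's median difference was 0.07 (range -0.14 to 0.27), against 0.09 over all genes above background.

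Rbm25, which works with the U1 particle at 5′ splice sites, had the largest difference of that group by the brightest probe sets. Its 4 probe sets above background gave 9.75 and 10.02, 9.63 and 10.13, 8.70 and 9.14, and 8.06 and 8.36 in clones 1 and 2. All 4 were higher in clone 2, by 0.27 to 0.50, and the 2 others, which were below background, also differed upwards (0.69 and 0.62). Among all probe sets within 0.5 of the same mean signal, 5.06% differed by as much as the probe set with 0.50, and 29.6% by as much as the one with 0.30. Each difference of Rbm25 was under 2-fold.

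The related splicing regulators Rbm5 and Rbm6, neighbours on chromosome 9 known as candidate tumour suppressors, differed little. Rbm5 gave 9.56 and 9.60 by its brightest probe set and 7.60 and 7.48 by another above background. Its remaining 3 probe sets (6.54 and 6.28, 6.43 and 6.16, 4.36 and 4.31) were above background in neither clone. Of Rbm6, 2 probe sets were above background, with 8.68 and 8.63 and with 8.66 and 8.84, and the third gave 5.58 and 5.83. In both genes the probe sets above background disagreed in sign, with differences from -0.12 to 0.18, so neither gene had 1 direction.

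Rbm39, a relative of the splicing factor U2AF also known as a coactivator of steroid receptors, was read by 12 probe sets, 9 of them above background in at least 1 clone. The brightest gave 9.65 and 9.82. Over the 8 above background in both clones the differences ran from -0.23 (7.95 and 7.72) through 0.00 (8.33 and 8.33) to 0.52 (8.82 and 9.34). The ninth, at 5.54 and 6.36, differed by 0.82 and passed in clone 2 alone. The last 4 of the 8 were at 7.37 and 7.65, 7.55 and 7.83, 8.79 and 8.86, and 7.63 and 7.73. The 3 below background gave 5.62 and 5.54, 6.0 and 6.0, and 6.20 and 6.12. Of the 9, 7 were higher in clone 2, 1 lower and 1 equal. The probe set at 5.54 and 6.36 and the one at 8.33 and 8.33 were designed on the same expressed sequence and differed from each other in clone difference by 0.82. The one at 5.62 and 5.54, below background in both clones, was designed on that sequence too and differed by -0.08.

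Among regulators of alternative splicing, 2 of the 6 measured passed the background level in both clones and 4 in neither. Rbm14, a paraspeckle protein and transcriptional coactivator, had 4 probe sets above background, with 10.49 and 10.61, 9.93 and 10.20, 8.80 and 8.92, and 8.05 and 8.49. All 4 were higher in clone 2, by 0.12 to 0.44. The first 3 have identifiers that mark probes shared with other transcripts, and without them Rbm14 rests on the difference of 0.44. Rbm47, an epithelial splicing factor and cofactor of the mRNA editing enzyme Apobec1, gave 7.99 and 8.38 (8.19 ± 0.28, SD, n = 2). Its other 2 probe sets were below background and went opposite ways, at 5.62 and 5.87 and at 3.65 and 2.80.

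The 4 regulators not above background included 3 known from differentiated tissue. Rbm20, the heart factor that controls splicing of titin, gave 4.83 and 4.98. Rbm24, a splicing factor of heart and skeletal muscle, was between 3.23 and 3.98 over 5 probe sets and both clones. Rbm11, known from brain and testis, gave 3.41 and 3.19. The fourth was Rbm4b, a close relative of Rbm4 (Lark), and its 3 probe sets gave 5.47 and 4.97, 5.21 and 4.60, and 4.77 and 4.16. All 3 were lower in clone 2, by 0.50 to 0.61, and none was above background in either clone. Of all probe sets below background in both clones, 63.2% were lower in clone 2, with a median difference of -0.12.

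Both members that recruit the m6A methyltransferase to RNA were above background in both clones. Rbm15 had 1 probe set, with 8.50 and 8.88 (8.69 ± 0.27, SD, n = 2). Its paralog Rbm15b gave 7.79 and 7.78 by the brightest probe set, 7.04 and 7.30 by another, and 5.80 and 5.48 by one more that was below background. The difference of 0.38 in Rbm15 was matched by 16.7% of all probe sets of like signal, so it was not unusual between these arrays. Of 6 partners of the methyltransferase, Mettl3, Mettl14, Wtap, Virma, Zc3h13 and Cbll1, 5 passed the background level in both clones and 1, Zc3h13, in clone 2 alone. Of these 6, 4 were higher and 2 lower in clone 2, 0 differed 2-fold, and their median difference was 0.18. Of all genes above background, 64.1% were higher in clone 2, and the median difference was 0.09. Wtap, the subunit that holds the enzyme in nuclear speckles, had the largest, with 9.68 and 10.11.

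Rbm26 differed more than any other Rbm gene above background, and its probe sets did not give the same size. Rbm26 and its paralog Rbm27 are zinc finger and RNA recognition motif proteins that associate with the adaptor linking polyadenylated nuclear transcripts to the exosome. The brightest Rbm26 probe set (1426419_at) gave 8.47 in clone 1 and 9.62 in clone 2 (9.05 ± 0.81, SD, n = 2), a difference of 1.15 or 2.22-fold. The next (1426803_at) gave 8.80 and 8.91, another (1442038_at) 7.81 and 7.86, and the fourth (1426421_s_at) 7.25 and 7.70. All 4 were above background and higher in clone 2, by 1.15, 0.11, 0.05 and 0.45. The first and the fourth were designed on the same transcript sequence and still differed by 0.70 in clone difference. Among 2989 probe sets within 0.5 of the same mean signal, 8 (0.268%, itself included) differed by as much as the first, whereas 67.9% and 87.5% differed by as much as those at 0.11 and 0.05. The mean over the 4 probe sets was 0.44, under 2-fold. The 2-fold difference of Rbm26 therefore rests on 1 probe set.

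**Figure D2:**
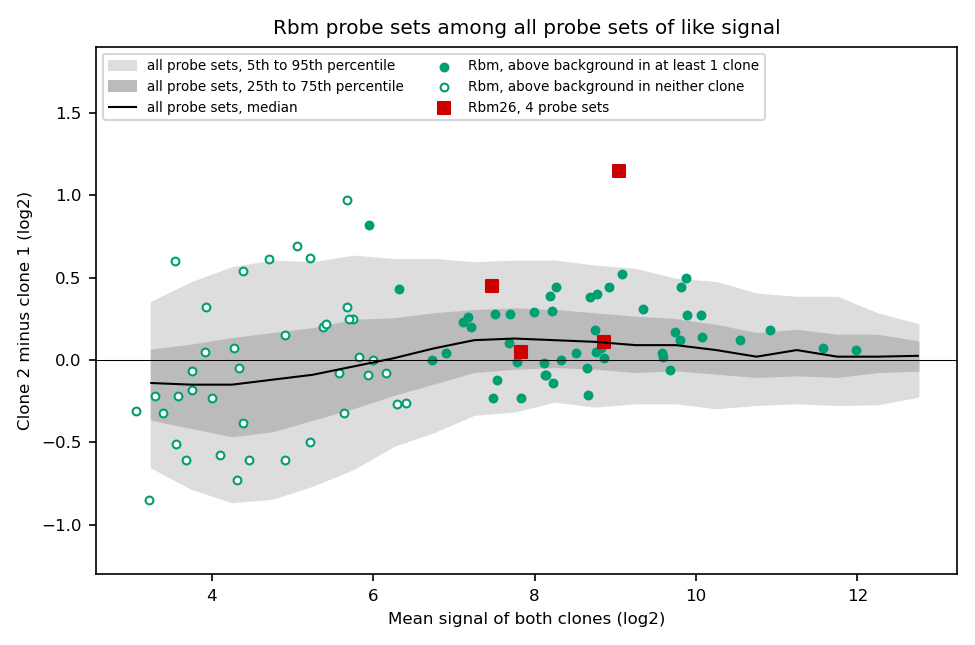
Clone 2 minus clone 1 (log2, y axis) against the mean signal of both clones (log2, x axis) for the 95 Rbm probe sets (points) and all 34945 probe sets with 1 gene symbol (grey bands for percentiles, black line for the median). The 4 Rbm26 probe sets (red squares) lie at 0.05, 0.11, 0.45 and 1.15, and only the last is far outside the band of its signal.

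Rbm27 gave 9.58 and 9.60 (9.59 ± 0.01, SD, n = 2) by its 1 probe set above background, a difference of 0.02, and 3.21 and 2.90 and 4.58 and 4.20 by the 2 others. Rbm7, a subunit of the adaptor that delivers unstable promoter transcripts to the exosome, gave 10.83 and 11.01. Rbm33, listed with this group, gave 8.74 and 8.79 and 7.11 and 7.31 by probe sets above background and 5.30 and 5.52 by another. The 4 genes of this group were all above background and, as deposited, higher in clone 2, as were 64.1% of all genes above background. Quantile and loess normalization turned the sign of Rbm27 (-0.09 and -0.06) and Rbm33 (-0.07 and -0.06). Of 8 partner genes of the nuclear exosome adaptors all were above background in both clones. In clone 2, 7 of them were higher and 1 lower, 0 differed 2-fold, and their median difference was 0.07. Pabpn1, the nuclear poly(A)-binding protein, gave 13 and 13.22.

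The 3 nucleolar and ribosome assembly members were above background in both clones. Rbm28, needed to make the large ribosomal subunit, gave 9.71 and 9.65 by its brightest probe set. A second Rbm28 probe set, designed on the same expressed sequence, gave 6.10 and 6.53 and passed in clone 2 alone. Rbm19, a nucleolar protein of rRNA processing, gave 8.19 and 8.10. Rbm34, listed with them, gave 9.19 and 9.50 by its brightest probe set and 8.13 and 8.11 by the other. Rbm28 and Rbm19 were lower in clone 2 by less than 0.1, so this group had no shared direction.

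Of 5 measured genes listed for mRNA stability, germ cells or restricted tissues, 3 were above background in both clones. Rbm38, a target of p53 that binds the mRNA of the cell cycle inhibitor p21, gave 8.57 and 8.97 (8.77 ± 0.28, SD, n = 2). Rbm45, known from developing brain, gave 10 and 10.14. Rbm44, a protein of the bridges between germ cells, gave 7.0 and 7.23 by 1 probe set and 5.82 and 5.84 by the other. Rbm43 gave 6.73 in each clone and was above background in clone 2 through its lower level. Rbm46, which germ cells need for meiosis, was not above background, with 3.77 and 4.09 and with 3.69 and 3.47. Its non-coding neighbour Rbm46os gave 4.68 and 3.95 and 3.79 and 3.72, and Rbm3os 4.12 and 3.89. The germ cell members were therefore split. Rbm44 gave 7.0 against the level of 6.84 in clone 1 and 7.23 against 6.34 in clone 2. Rbm46 was above neither level.

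The less characterised members included both a bright and a dim set. Rbm12 gave 9.60 and 10.04 by its brightest probe set (9.82 ± 0.31, SD, n = 2), 6.88 and 6.92 by a second designed on the same transcript, and 7.60 and 7.37 by another. The 3 differences, 0.44, 0.04 and -0.23, do not share a sign. Rbm18 gave 8.80 and 8.89 and 8.77 and 8.56 above background, again with opposite signs from 1 expressed sequence, and 5.98 and 5.89 below it. Rbm12b1 and Rbm12b2, neighbours on chromosome 4, were not above background. Rbm12b2 gave 5.19 and 6.16, a difference of 0.97 just under the 2-fold line and below the level in both clones, and the difference passed that line after median centring (1.06), quantile (1.015) and loess (1.02) normalization. It gave 3.89 and 3.94 by another probe set. Rbm12b1 gave 4.41 and 5.02 and 4.12 and 4.66. All 4 probe sets of this pair were higher in clone 2, though below background. Of all 19526 probe sets below background in both clones, 6961 were higher in clone 2.

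**Figure D3:**
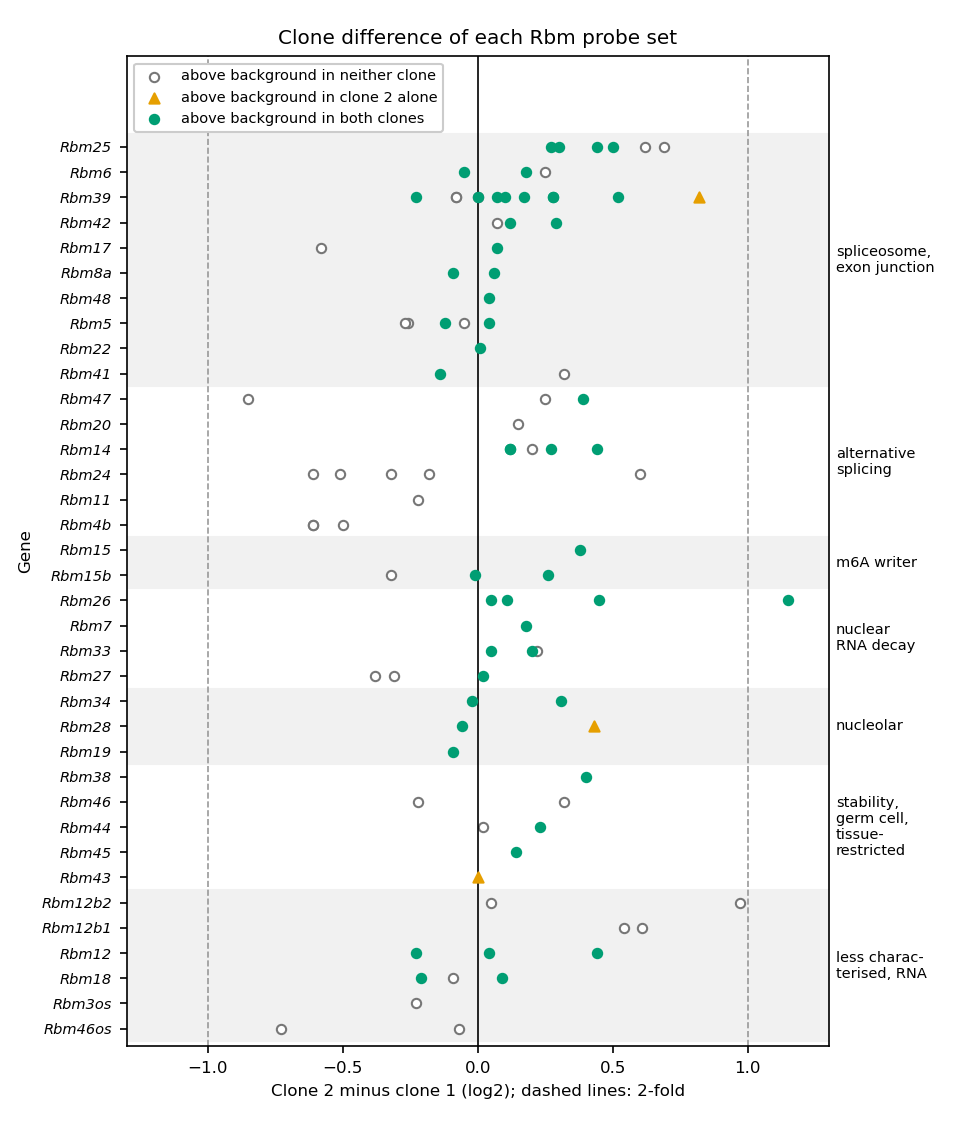
Clone 2 minus clone 1 (log2, x axis) of each of the 95 Rbm probe sets, 1 row per gene, by whether the probe set was above background in both clones (green circles), in clone 2 alone (orange triangles) or in neither (open circles). Dashed lines mark 2-fold. The only probe set beyond a dashed line is that of Rbm26 at 1.15, and open circles spread more widely than filled ones, from -0.85 for Rbm47 to 0.97 for Rbm12b2.

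Over probe sets, 1 of the 55 above background differed 2-fold, against 0.694% of all probe sets above background. Of the 27 Rbm genes that passed, 22 (81.5%) were higher in clone 2, 4 were lower and Rbm43 was equal. Over all genes above background 64.1% were higher in clone 2. The median difference was 0.12 for Rbm genes and 0.09 for all genes, and the median absolute difference 0.12 and 0.17. The share higher in clone 2 moved with the scaling of the arrays, for Rbm genes and all genes alike. After quantile normalization 16 of the 27 genes (59.3%) were higher in clone 2 against 48.6% of all genes, with medians of 0.05 and 0.00. After loess normalization the count was again 16 (59.3%), against 51.9%. Rbm26 stayed above 2-fold by its brightest probe set under quantile (1.03), loess (1.05) and median centring (1.24).

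**Figure D4:**
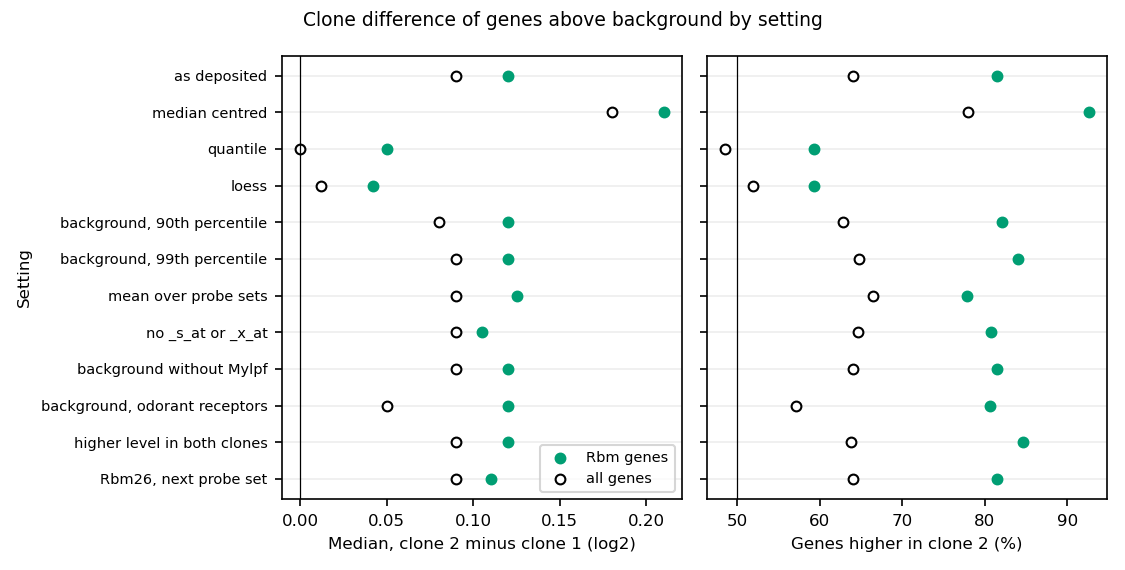
Median clone difference (left, log2) and percentage of genes higher in clone 2 (right) for Rbm genes (green) and all genes (open) above background, under each setting of normalization, background and probe set choice. The green point lies to the right of the open one in each row, and both move left under quantile and loess normalization, to medians of 0.05 and 0.00 under quantile.

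Probe sets of 1 Rbm gene often disagreed. Of the 14 Rbm genes with at least 2 probe sets above background, 2 had clone differences spread over 1 or more: Rbm26 (0.05 to 1.15) and Rbm39 (-0.23 to 0.82). Over all genes with several such probe sets this share was 2.67%. Rbm39 reached it only through the probe set that passed in clone 2 alone, and it had 9 probe sets in the count. In 9 of the 14 genes (64.3%) probe sets differed in sign, against 46.6% of all such genes. Some of these splits rest on a small difference, such as -0.01 in Rbm15b and -0.02 in Rbm34. Others do not, such as -0.23 and 0.44 in Rbm12. The median spread was 0.29 over the Rbm genes and 0.28 over all genes.

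**Figure D5:**
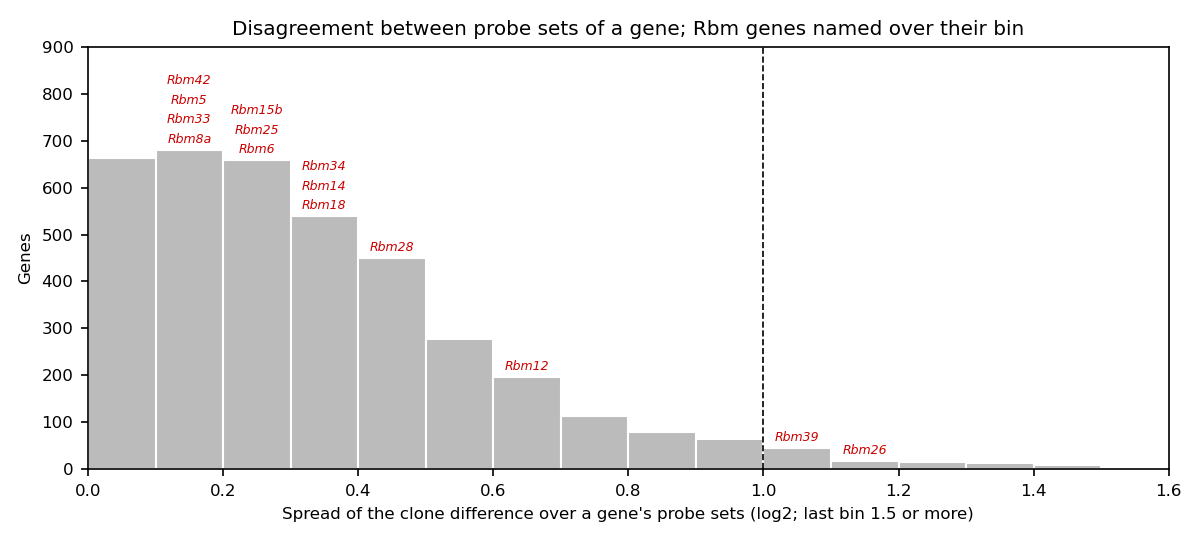
Number of genes (y axis) by the spread of the clone difference over the gene's probe sets above background (log2, x axis) for all 3825 genes with at least 2 such probe sets. The 14 Rbm genes are named over their bins, and Rbm39 and Rbm26 lie beyond the dashed line at 1.

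Partners of the other groups were counted from lists in the same way. Over all genes, 46.1% were above background in both clones. Of those above it in at least 1 clone, 64.1% were higher in clone 2 and 0.443% differed 2-fold, with a median difference of 0.09. Of 9 measured U2 and exon definition factors all were above background in both clones, with 4 higher, 4 lower and 1 equal in clone 2, 0 at 2-fold and a median of 0.00. Among them Luc7l3, a U1-associated protein, gave 10.68 and 11.02, and Sf1, the branch point binding protein, 12.70 and 12.70 by its brightest probe set. Another Sf1 probe set above background gave 11.99 and 10.68, a difference of -1.31, so the count at 2-fold rests on the brightest probe sets. All 3 measured paraspeckle partners were above background and higher in clone 2, with 0 at 2-fold and a median of 0.35. Nono gave 12.40 and 12.49, and Pspc1 9.43 and 9.78. Of 2 measured exon junction partners, each read by 1 probe set, Casc3 was above background (7.84 and 7.85) and Eif4a3 was not (4.74 and 4.51). A single dim probe set does not show that a gene is silent. Of 3 relatives of the cold-inducible Rbm3, 2 were above background in both clones. They were Rbmxl1, a retrogene copy of Rbmx, with 12.24 and 12.19, and Cirbp, while Rbmx gave 6.18 and 6.41 and passed in clone 2 alone. Rbmxl1 was read by 1 probe set, and whether that probe set also reads Rbmx mRNA was not tested. The 3 relatives had a median of 0.12, with 2 higher and 1 lower in clone 2 and 0 at 2-fold.

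Promoter letters were read for 29 of the 36 members, from 33 entries of the RefSeq promoter table (GRCm38.p6). Each entry was read over the 250 bases before its start. Rbm22 and Rbm27 were not read, because entries on their chromosome were left out of the member set. The set of all entries kept that chromosome, so the member and overall values below do not cover the same chromosomes. The motif searched was CCNCNCCC on either strand (GGGNGNGG on the other), a core of the GC and CACCC boxes that Klf and Sp factors bind, with overlapping matches counted separately. It was in 19 of the 33 entries (57.6%), against 45.9% of all 32851 entries. Genes above background in both clones had it in 13 of 25 entries, and genes above it in neither in 5 of 6. CpG dinucleotides numbered 18 at the median over the members and 6 over all entries. Members above background in both clones had a median of 17 and those in neither 19. Rbm25 had 0 CpGs in its window although 4 of its probe sets were above background. The letters below are those of Rbm26, the gene with the largest difference above background, and of Rbm14 and Rbm4b, which lie on either side of Rbm4 on chromosome 19 and differ in signal. Each is written 5′ to 3′ in the direction of transcription, and capitals mark matches to the motif.
Rbm26, chr14:105177315-105177564, minus strand, 0 matches: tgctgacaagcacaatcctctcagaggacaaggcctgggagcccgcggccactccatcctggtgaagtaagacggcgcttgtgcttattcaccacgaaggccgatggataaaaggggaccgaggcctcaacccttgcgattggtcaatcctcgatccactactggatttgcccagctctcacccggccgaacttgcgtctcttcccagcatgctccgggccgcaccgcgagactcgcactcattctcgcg
Rbm14, chr19:4811635-4811884, minus strand, 3 matches: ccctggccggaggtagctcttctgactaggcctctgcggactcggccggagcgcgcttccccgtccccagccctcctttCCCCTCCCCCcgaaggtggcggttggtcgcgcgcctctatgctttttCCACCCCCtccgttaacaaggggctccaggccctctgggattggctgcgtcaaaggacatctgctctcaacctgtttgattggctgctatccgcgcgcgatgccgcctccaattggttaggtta
Rbm4b, chr19:4756275-4756524, plus strand, 7 matches: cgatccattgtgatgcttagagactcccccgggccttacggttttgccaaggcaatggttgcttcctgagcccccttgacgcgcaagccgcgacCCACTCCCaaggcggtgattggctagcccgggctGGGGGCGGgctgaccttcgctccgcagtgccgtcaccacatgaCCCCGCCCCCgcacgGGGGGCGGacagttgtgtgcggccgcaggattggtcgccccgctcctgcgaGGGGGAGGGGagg
Rbm4b, with the most matches of any member read, was above background in neither clone, and the Rbm26 window held no match. A match is only a run of letters, and binding of Klf5 was not measured here.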

How the data were processed

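The deposited table holds log2 signals of 45037 probe sets on each array, from 2.21 to 14.38. The submitters' processing notes name Transcriptome Analysis Console. Its version and the authors' background correction, summarisation and normalization are not stated in the labels. No source gives the log base, and base 2 was inferred from the span of values. The column medians were 5.27 and 5.18. Gene names came from the platform annotation: 34945 probe sets had 1 symbol, 932 several and 9160 none in this table. The symbols of all members matched RefSeq (GRCm38.p6) by Entrez identifier.

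Values were used as deposited, with Python 3.11.15 and pandas 2.3.3. Background levels came from 48 of 53 listed adult tissue genes that had a probe set. The procedure was checked on simulated arrays with differences well above 2-fold planted in bright probe sets alone. This checks the code and does not measure how the rule performs in dim probe sets. Every member is named. Every probe set is given for members with a 2-fold probe set or a spread of 1 or more, and for paralogs. Partner lists name the largest difference and the highest signal. The members and lists were chosen with earlier results of these data known. Alternatives were other normalizations, background levels and probe set rules, and each clone alone.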

Additional observations from a re-analysis of the deposited data

How the results depend on the processing

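The count of Rbm genes above background in both clones, 26, ran from 24 (background at the 99th percentile, which leaves out Rbm15b and Rbm44) to 27 (90th percentile, which adds Rbm43), and was 25 without probe sets whose names end in _s_at or _x_at. Each clone alone gave 26 or 27. With background from odorant receptor probe sets, chosen after the data were seen, it was 29, adding Rbm43, Rbm4b and Rbm12b2. Probe sets above background ranged from 42 to 75 under these levels. Rbm26 remained the 1 gene at 2-fold except with the probe sets of each gene averaged, which gave 0 genes, and with its next brightest probe set (chosen after the data were seen), which also gave 0. The median difference of 0.12 ran from 0.04 (loess) to 0.21 (median centring). Quantile and loess normalization each turned the sign of 6 of the 27 genes, Rbm5, Rbm18, Rbm22, Rbm27, Rbm33 and Rbm48, which differed by 0.09 or less as deposited. Median centring turned 2 (Rbm15b and Rbm28). The mean over probe sets turned 5 (Rbm5, Rbm8a, Rbm15b, Rbm18 and Rbm28). Background genes without Mylpf, or the higher level asked of both clones, left the count of 26 as it was (both chosen after the data were seen). Rbm12b2 passed 2-fold under the 3 normalizations but stayed below background.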

Other observations

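Genes with Rbm names outside the digit rule, chosen after their values were seen, were read in the same way. Rbms1, a single-stranded nucleic acid binding protein, gave 10.40 in clone 1 and 10.57 in clone 2, and its relative Rbms2 8.89 and 8.88. Rbms3 was not above background, with 6.24 and 5.43. Rbmx2, a spliceosome protein, gave 8.74 and 8.86. Rbmx, the X-linked parent of the Rbmxl1 retrogene, was dim in each of its 4 probe sets (3.50 and 3.71, 3.35 and 2.94, 5.85 and 5.62, and 6.18 and 6.41). Whether the 1 probe set of Rbmxl1 also reads Rbmx mRNA was not tested. None of these genes differed 2-fold above background.

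Probe sets of Sf1 also disagreed, with the largest difference in the other direction from that of Rbm26. Sf1 was singled out after its values were seen. Its brightest probe set gave 12.70 in both clones, while another gave 11.99 and 10.68, a difference of -1.31. Both have identifiers that mark probes shared with other transcripts, unlike the brightest Rbm26 probe set. The other 3 Sf1 probe sets were higher in clone 2, at 7.0 and 7.57, 9.34 and 9.74, and 6.03 and 6.42. The cause was not tested.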
